A study of Drosophila melanogaster with 9 samples.

Results

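The 26S proteasome is the machine that degrades ubiquitin-tagged proteins in the cytosol and nucleus. Its 20S core is a barrel in which outer rings of alpha subunits gate the entry and inner rings of beta subunits carry the proteolytic sites. A 19S regulatory particle sits on the barrel: its base holds a ring of ATPases that unfold substrates, and its lid removes the ubiquitin chains. Drosophila also has second copies of several subunit genes, many of which are known from the testis, where some replace their constitutive counterparts during sperm formation.

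Proteasome genes were taken as those with a FlyBase symbol that begins with Prosalpha, Prosbeta, Rpn or Rpt and a digit. This gave 48 of the 13947 genes counted, and the rule used no measured value. Of these, 32 are constitutive subunits: 7 of the alpha ring, 7 of the beta ring, 6 base ATPases, 4 other base subunits and 8 lid subunits. The other 16 are paralogs whose symbol ends in T, T1, T2, R, R1 or R2.

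The counts came from 3 nuclear RNA-seq libraries of shSet2 photoreceptors. The flies were males aged 10 days after eclosion, kept under light and dark cycles and collected at ZT6. In them rh1-GAL4, with w (w1118 by the study's methods) and ry[506], drove both UAS-GFP-Msp300KASH at attP2, a nuclear envelope tag used for nuclei immuno-enrichment (NIE), and UAS-siSet2, the RNAi construct (shSet2) against Set2-FBgn0030486, the H3K36me3 methyltransferase. The Rh1 promoter of the driver is that of the outer photoreceptor opsin. A single RNAi line was used (TRiP.HMJ02076 at attP40, from a y1 v1 stock), with 10 ng of RNA per library. RNA-seq of shControl photoreceptors was not analysed here, so every value describes shSet2 photoreceptors and none measures an effect of Set2. With 3 libraries of 1 group no test between groups was possible, and differences are set against the spread between libraries.

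Library totals lay between 3657491 and 4960498 counts. All 8 photoreceptor markers, among them ninaE and trp, were counted, and together took 63251 to 66226 CPM (counts per 1000000) in the libraries. No inner photoreceptor markers were set beside these, so the sum does not tell outer from inner photoreceptors. Markers of glia (5 of 5 with at least 10 counts in every library) summed to 223 to 264 CPM, of other neurons (5 of 5) to 93.1 to 128 CPM, of fat body (2 of 4, Fbp1 at 0) to 588 to 786 CPM and of muscle (2 of 4, Act88F at 0) to 26.3 to 83.5 CPM, each sum highest in replicate 1. Single markers did not all follow the sums. Of fat body, apolpp had 776, 618 and 543 CPM in replicates 1, 2 and 3, and Lsp2 had 10.0, 25.4 and 44.8. The part of these other cell types in the levels below was not tested. Set2 itself had 313, 370 and 369 counts, which without control libraries does not check the knockdown. In such bulk samples, fewer nuclei of a type and less RNA per nucleus cannot be told apart.

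A single paralog, Prosalpha3T, had about as many counts as all 32 constitutive subunit genes together. Prosalpha3T alone had 296, 292 and 254 CPM in the order of the replicate numbers, a mean of 281 ± 23.1 CPM (SD, n = 3). The 32 constitutive genes summed to 253, 253 and 259 CPM, a mean of 255 ± 3.79 CPM (SD, n = 3). The ratio of Prosalpha3T counts to the counts of all constitutive genes was 1.17 in replicate 1 (95% exact interval 1.07 to 1.28), 1.15 in replicate 2 (1.06 to 1.26) and 0.98 in replicate 3 (0.906 to 1.06). The intervals cover counting error only. Prosalpha3T thus exceeded the constitutive sum beyond counting error in replicates 1 and 2, and the order was not resolved in replicate 3.

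Of the 16 paralogs, 2 had at least 10 counts in every library, against 25 of the 32 constitutive genes. The share over all genes was 41.6%, and 37.1% over the 7964 genes whose annotated span lies within that of the members (881 to 4500 bp). At 0 in every library were 5 of the 16 paralogs, Prosalpha6T, Prosbeta2R1, Prosbeta4R1, Prosbeta5R2 and Rpt4R, against 0 of the 32 constitutive genes. The share at 0 over all genes was 21.6%. Another annotated gene overlaps 6 of the 16 paralogs and 16 of the 32 constitutive genes, among these 5 of the 6 base ATPases and 0 of the 4 other base subunits, and the counts of such genes depend on how shared reads were assigned.

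To compare genes with each other, CPM were divided by the annotated gene span in kb, introns included. On this scale the levels of the constitutive genes ran between 0.0491 and 12.5 CPM per kb, with a median of 3.59 over the gene means. The median of all genes was 0.651 CPM per kb. Among genes with at least 10 counts in every library, the median was 3.75 for the 25 constitutive genes, against 5.39 for all 5758 with a known span and 4.97 for the 2953 with a span within that of the members. Constitutive subunits thus lay above the median of all genes and below the median of genes past the count minimum.

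**Figure D1:**
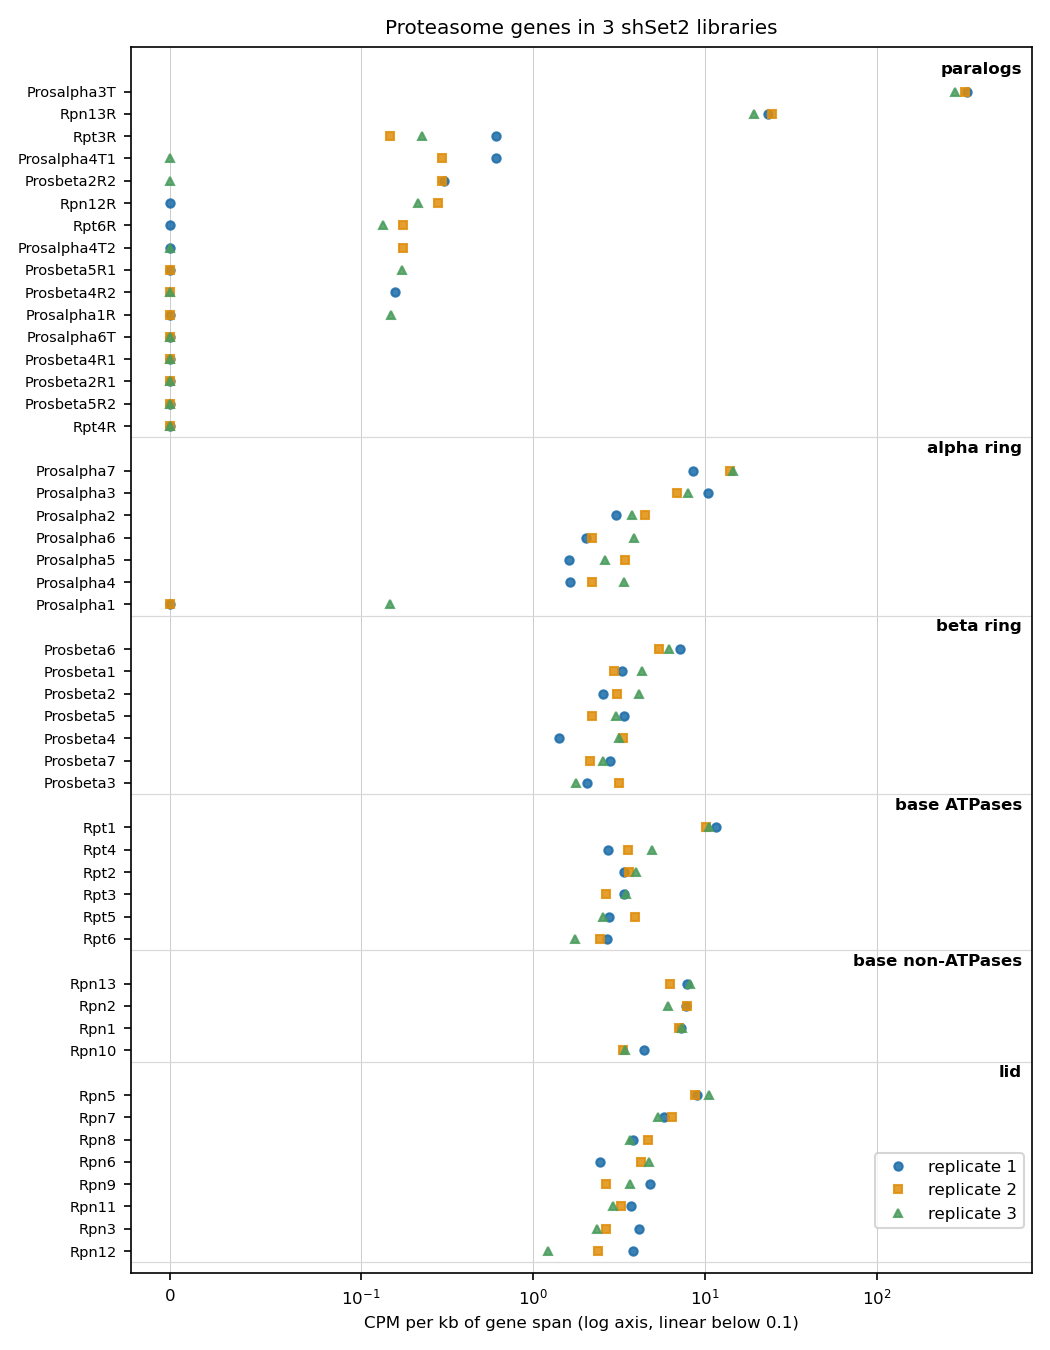
CPM per kb of gene span (log axis, linear below 0.1) of the 48 proteasome genes, by part of the complex, with 1 point per shSet2 library. Apart from Prosalpha1, the constitutive genes have means of 2.30 to 12.5 CPM per kb. Prosalpha3T and Rpn13R stand above them, and the other 14 paralogs lie near 0.

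In the alpha ring, Prosalpha7 had the highest mean per kb, and the highest of all constitutive subunits, although it did not differ beyond the spread from Rpt1, the next of them. It had 38, 64 and 87 counts in replicates 1, 2 and 3, or 12.5 ± 3.37 CPM per kb (SD, n = 3). Replicate 1 was the low library for it, at 8.57 CPM per kb, against 14.1 and 14.7 in replicates 2 and 3. Prosalpha3, whose yeast counterpart closes the entry gate with its N-terminal tail, had 47, 32 and 48 counts, or 8.46 ± 1.80 CPM per kb. Prosalpha7 and Prosalpha3 did not differ beyond their spread, as Prosalpha3 was the higher of them in replicate 1.

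Prosalpha2, Prosalpha6, Prosalpha5 and Prosalpha4, the other structural subunits of the ring, had means of 2.41 to 3.78 CPM per kb and between 6 and 23 counts in a library. Prosalpha5 in replicate 1 was the lowest of these, with 6 counts. The within-library ratio of Prosalpha7 to Prosalpha5 per kb was 5.29 (exact interval 2.22 to 15.3) in replicate 1, 4.11 (2.24 to 8.14) in replicate 2 and 5.59 (3.10 to 10.9) in replicate 3, so it was above 1 beyond counting error in each. The neighbours in the order differed beyond their spread at 2 of 6 places, between Prosalpha3 and Prosalpha2 and between Prosalpha4 and Prosalpha1. Beyond the spread here means a difference with the same sign in all 3 libraries and a mean larger than its SD. The order was set from the same 3 libraries, so this rule describes them and is not a test. The ratios of a high to a low gene, here and for the later parts, were also picked from these libraries. Their intervals do not allow for that choice.

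Prosalpha1 was the exception in the ring, with 0, 0 and 1 counts. Its neighbour Prosalpha1R also had 0, 0 and 1 counts. Both lie on chromosome arm 2R, and each overlaps a neighbour by 17 bp: phr, a photolyase gene at the end of Prosalpha1, had 18, 28 and 54 counts, and CG18853, at the end of Prosalpha1R, had 0 in every library. How like the sequences of Prosalpha1 and Prosalpha1R are was not examined here, and how reads that match more than 1 place were counted is not given in the sources used here, so the low counts are uncertain. Counts of 0 were set against a fixed floor of 3 counts and not an exact interval. The floor is 0.608 CPM in the deepest library and 0.813 CPM in the shallowest.

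Genes of the beta ring lay close together apart from Prosbeta6. Its catalytic subunits are Prosbeta1 (caspase-like), Prosbeta2 (trypsin-like) and Prosbeta5 (chymotrypsin-like). Prosbeta1 had 12, 11 and 21 counts, Prosbeta2 had 13, 16 and 28, and Prosbeta5 had 15, 10 and 18. Their means were 3.53 ± 0.71, 3.27 ± 0.80 and 2.87 ± 0.61 CPM per kb (SD, n = 3 each), which did not differ beyond their spread.

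Prosbeta6, a structural subunit known in flies for the dominant temperature-sensitive allele DTS5, was the highest of the ring. It had 27, 21 and 31 counts, or 6.27 ± 0.87 CPM per kb, and was above Prosbeta1, the next gene, in all 3 libraries. Prosbeta3 had the lowest mean, at 2.34 ± 0.74 CPM per kb from 7, 11 and 8 counts. The ratio of Prosbeta6 to Prosbeta3 per kb was 3.46 (exact interval 1.47 to 9.41) in replicate 1, 1.71 (0.789 to 3.93) in replicate 2 and 3.48 (1.56 to 8.75) in replicate 3, so replicate 2 did not resolve it. Prosbeta4 had 5, 12 and 15 counts and Prosbeta7 had 14, 11 and 17, and below Prosbeta6 no neighbours in the order of the ring differed beyond the spread.

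Among the base ATPases, which form the ring that unfolds and threads substrates, Rpt1 stood apart. It had 65, 58 and 79 counts, or 10.8 ± 0.77 CPM per kb. The other ATPases had means of 2.30 (Rpt6) to 3.74 (Rpt4) CPM per kb. Rpt1 exceeded each of them in every library, and its ratio to Rpt6 per kb was 4.32 (exact interval 2.47 to 8.0) in replicate 1, 4.11 (2.30 to 7.82) in replicate 2 and 6.0 (3.38 to 11.5) in replicate 3. Rpt1 lies within the span of CG17985, which had 48, 54 and 73 counts, and whether reads were assigned between them by strand is not given in the sources used here.

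Rpt4 had 18, 24 and 43 counts and Rpt5 had 18, 26 and 22. Rpt2 had 21, 23 and 33 counts, and Rpt3 had 21, 17 and 29. Neighbours in the order of these 4 genes did not differ beyond the spread. Rpt6, with 16, 15 and 14 counts, was below Rpt5 in all 3 libraries, by 0.788 ± 0.69 CPM per kb.

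The non-ATPase subunits of the base had the highest median per kb of any part, while their summed CPM, 73.4, 68.3 and 66.5, were below those of the lid, 77.8, 77.5 and 76.4. Rpn1 and Rpn2 are the large scaffold proteins of the particle, and Rpn10 and Rpn13 are its ubiquitin receptors. Rpn2 had 107, 111 and 113 counts, Rpn1 had 84, 83 and 113, and Rpn13 had 54, 44 and 75. Per kb, Rpn13 at 7.43 ± 1.03, Rpn2 at 7.26 ± 0.97 and Rpn1 at 7.25 ± 0.16 CPM did not differ beyond their spread. Rpn10 had 26, 20 and 27 counts, or 3.75 ± 0.61 CPM per kb, below Rpn1 in each library. The ratio of Rpn13 to Rpn10 per kb was 1.77 (exact interval 1.09 to 2.94) in replicate 1, 1.87 (1.08 to 3.35) in replicate 2 and 2.36 (1.5 to 3.82) in replicate 3, above 1 beyond counting error in each.

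The lid was led by Rpn5, a scaffold subunit, with 69, 69 and 108 counts or 9.44 ± 0.95 CPM per kb. Rpn7 followed at 5.89 ± 0.54 and Rpn8, the partner of the deubiquitinase, at 4.08 ± 0.54. Both steps were in the same direction in all 3 libraries. Rpn8 shares 2653 bp of its span with Slik, a kinase gene with 9184 to 11363 counts, so its counts are uncertain.

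Rpn11, the deubiquitinase that removes ubiquitin chains from substrates, had 19, 17 and 20 counts, or 3.29 ± 0.40 CPM per kb. Rpn6, which clamps the lid to the core, had 25, 44 and 64 counts. Its CPM per kb were 2.47, 4.24 and 4.72, so that replicate 1 was low as for Prosalpha7. Rpn3 and Rpn12 went the other way: Rpn3 had 29, 19 and 22 counts and Rpn12 had 14, 9 and 6, with the highest level per kb of each in replicate 1. Rpn9 had 37, 21 and 38 counts. Rpn12 was the lowest of the lid, and the ratio of Rpn5 to Rpn12 per kb was 2.36 (exact interval 1.32 to 4.54) in replicate 1, 3.67 (1.83 to 8.37) in replicate 2 and 8.62 (3.84 to 24.0) in replicate 3.

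Medians over the genes of a part were 6.98 ± 0.49 CPM per kb for the base non-ATPases, 3.81 ± 0.17 for the lid, 3.47 ± 0.34 for the base ATPases, 3.08 ± 0.92 for the alpha ring and 3.03 ± 0.20 for the beta ring (SD over 3 libraries). The medians of the base non-ATPases did not overlap with those of any other part, at 7.54, 6.66 and 6.75 in replicates 1, 2 and 3, against a highest value of 4.0 in any library for the others. Single genes did overlap: Rpn10 had a mean of 3.75, and Prosalpha7, Rpt1, Rpn5 and Prosalpha3 had means above every base non-ATPase. The base non-ATPases also had the longest median span of the parts, 2485 bp. The alpha ring, at 2.04, 3.43 and 3.77, overlapped with the lid, the base ATPases and the beta ring. With genes that overlap no other gene alone, the median was 4.38 for 2 beta genes 3.19 for 4 lid genes, 3.18 for 1 base ATPase, Rpt3, and 3.12 for 5 alpha genes, so that the beta ring, the lowest part over all genes, came above these 3 parts.

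Over all 32 constitutive genes ordered by level, neighbours differed beyond the spread at 4 of 31 places: Rpt1 above Rpn5, Rpn1 above Prosbeta6, Rpn7 above Rpn8, and Rpt6 above Prosalpha1. How many places would pass this rule without a true difference was not computed. Between Rpn8 and Rpt6, at places 10 to 31 of the order, no neighbours differed beyond the spread. The genes at places 10 to 31 had means between 2.30 and 4.08 CPM per kb and 5 to 82 counts in a library.

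CPM before division by span were higher in longer genes. Spearman's rho between mean CPM and gene span was 0.72 across the 32 constitutive genes and 0.56 across all 13871 genes with a span. Per kb it was 0.42 and 0.32, and -0.08 across the 5758 genes past the count minimum. All points come from the same 3 libraries, and genes are not independent replicates.

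**Figure D2:**
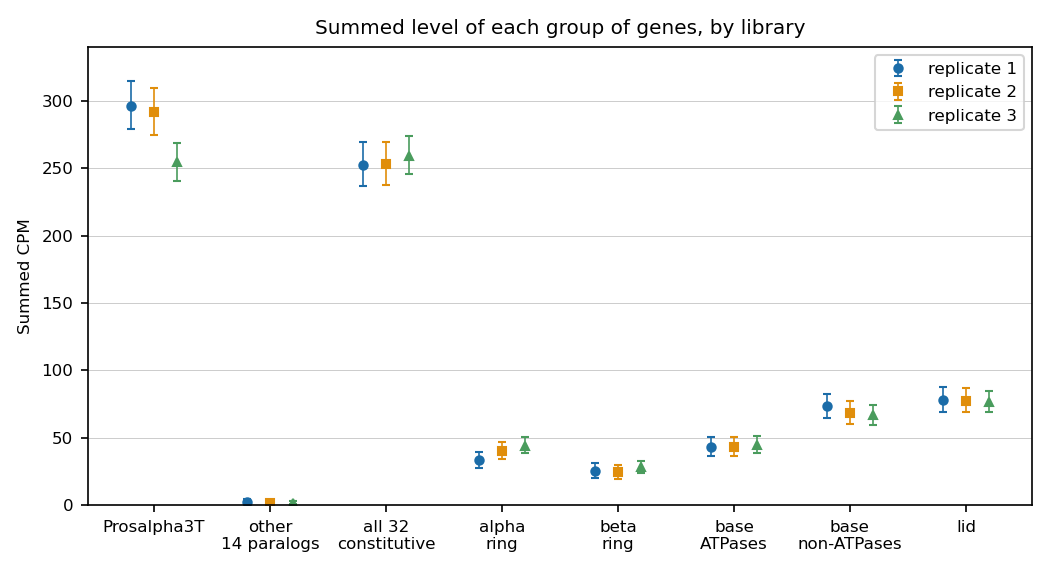
Summed CPM of the genes of each part, of Prosalpha3T, of all 32 constitutive genes and of the 14 paralogs other than Prosalpha3T and Rpn13R, with 1 point per shSet2 library and exact 95% intervals of the counts. Prosalpha3T, at 254 to 296 CPM, stands beside the constitutive sum of 253 to 259 CPM.

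Regulatory particle and core were set against each other within each library. The 18 genes of the 19S particle summed to 194, 189 and 187 CPM, and the 14 genes of the 20S core to 58.3, 64.3 and 71.9 CPM. The 19S sum was even, and the 20S sum was lowest in replicate 1 and highest in replicate 3. The ratio of 19S to 20S counts was 3.33 (exact interval 2.86 to 3.90) in replicate 1, 2.94 (2.54 to 3.41) in replicate 2 and 2.61 (2.30 to 2.95) in replicate 3. The intervals of all 3 libraries overlap, which does not show that the ratios are equal within counting error. The ratio of replicate 1 lies above the interval of replicate 3. Averaged per kb over the genes, the ratio was 1.42, 1.20 and 1.10. Of the core, the alpha ring summed to 33.1, 39.9 and 44.0 CPM and the beta ring to 25.2, 24.3 and 28.0. Prosalpha7 alone gave 10.3, 16.9 and 17.6 CPM of the alpha sum. This gene thus holds much of the rise in the 20S sum from replicate 1 to replicate 2.

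Spread between libraries was set against counting error. Of the 25 constitutive genes past the count minimum, 14 had a coefficient of variation (CV) at or below that of counting alone, and 23 had one of at most 2 times it. The share at or below counting was 33.8% over all genes past the minimum and 41.7% over those with summed counts in the range of the constitutive genes, and the share within 2 times was 73% and 86.9%. The exceptions were Prosalpha7, with a CV of 27.1% against 12.6% from counting, and Rpn6, with 31.2% against 15.0%. Both were lowest in replicate 1. Rpn1 varied least, with a CV of 2.26% against 10.4% from counting, so its spread was smaller than counting error alone gives on average. The median SD of log2(CPM + 1) was 0.19 for the 25 genes, 0.18 for all 5802 genes past the minimum and 0.24 for the 3262 of these with summed counts in the same range.

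**Figure D3:**
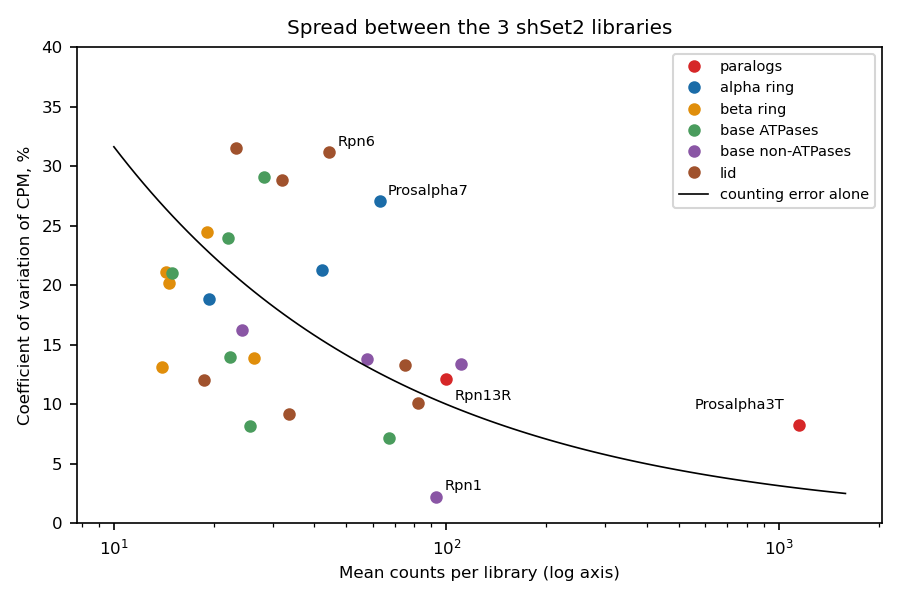
CV of CPM between the 3 shSet2 libraries against mean counts per library (log axis) for the 27 proteasome genes with at least 10 counts in every library, with a line for counting error alone. Prosalpha3T, at 8.22% against 2.95% from counting, Prosalpha7 and Rpn6 lie at more than 2 times the line.

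No library held the constitutive genes at a common extreme. Of the 25 genes, 10 were highest in replicate 1, 5 in replicate 2 and 10 in replicate 3. Over all genes past the minimum these shares were 35.4%, 30.1% and 34.5%.

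Of the paralogs, Prosalpha3T and Rpn13R were well counted and the other 14 were at or near 0. Per kb, 13 of the 16 were below the constitutive gene of the same name in every library, 2 were above it in every library, and Prosalpha1R was uncertain together with Prosalpha1. The 14 genes other than Prosalpha3T and Rpn13R summed to 9, 7 and 6 counts, or 1.84 ± 0.61 CPM. Rpt3R, with 4, 1 and 2 counts, was the highest of them and the only one above 3 counts in a library. It had 0.329 ± 0.25 CPM per kb, against 3.18 ± 0.44 for Rpt3.

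Paralogs of the catalytic subunits were nearly undetected. Prosbeta2R1 and Prosbeta5R2 were at 0 in every library, Prosbeta2R2 had 2, 2 and 0 counts, and Prosbeta5R1 had 0, 0 and 1. Prosbeta4R1 and Prosbeta4R2, copies of a structural subunit, had at most 1 count. Among the alpha paralogs, Prosalpha6T, which flies need for male fertility, was at 0, Prosalpha4T2 had 0, 1 and 0 counts and Prosalpha4T1 had 2, 1 and 0. Prosalpha4T1 lies within CG42322, a gene with 1795, 1863 and 2650 counts. Rpn12R and Rpt6R each had 0, 1 and 1 counts, and Rpt4R had none.

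**Figure D4:**
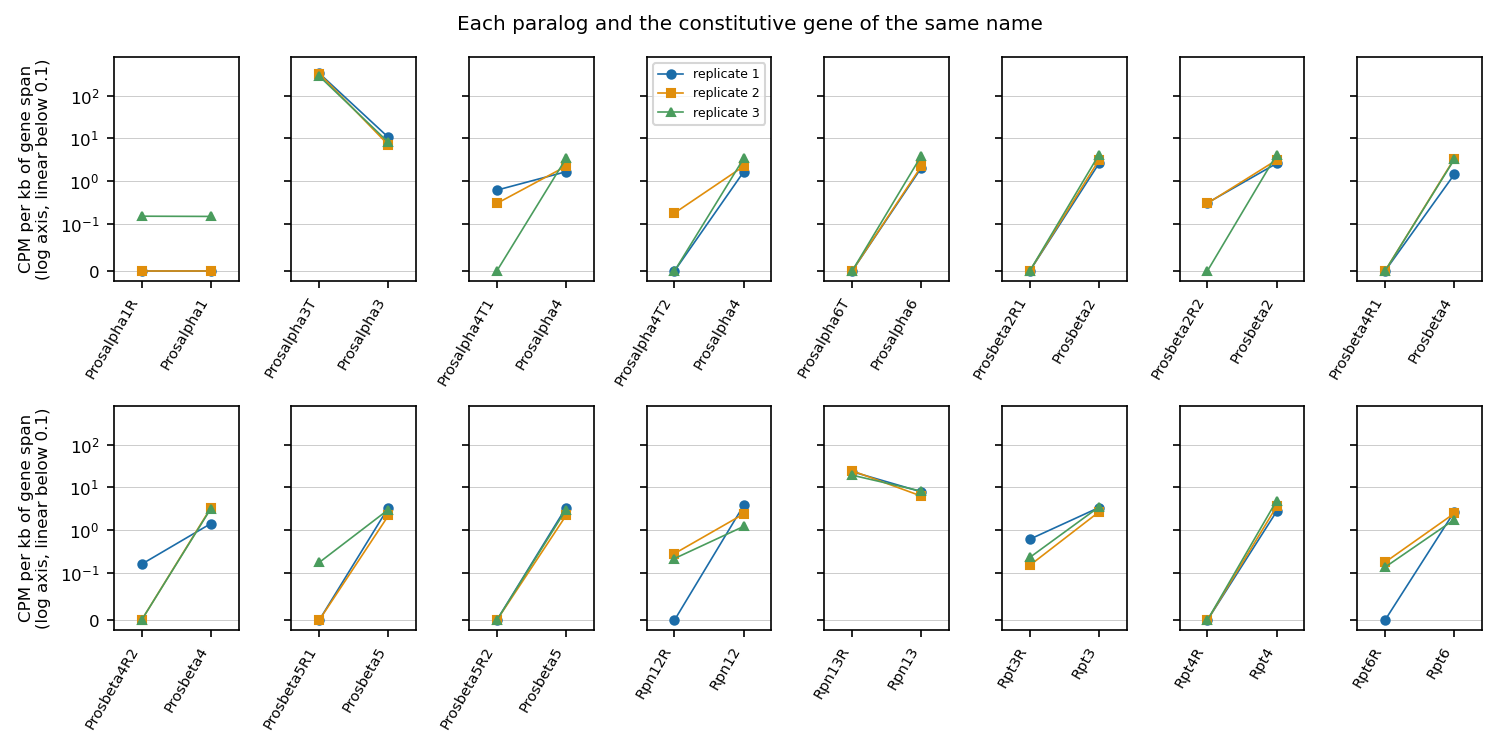
CPM per kb of gene span (log axis, linear below 0.1) of each of the 16 paralogs and of the constitutive gene of the same name, with 1 line per shSet2 library. Prosalpha3T and Rpn13R lie above their constitutive counterparts in all 3 libraries and 13 paralogs lie below.

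Prosalpha3T (FBgn0261395) was the highest proteasome gene. It spans 889 bp on chromosome arm 3R, from 31122527 to 31123415 (Release 6, dm6), and overlaps no annotated gene. It had 1094, 1103 and 1255 counts, against 47, 32 and 48 for Prosalpha3. This is 333, 328 and 286 CPM per kb, against 10.4, 6.94 and 7.98 for Prosalpha3. The ratio per kb was 31.9 (exact interval 23.8 to 43.7) in replicate 1, 47.3 (33.3 to 69.4) in replicate 2 and 35.9 (26.9 to 48.9) in replicate 3. Prosalpha3T was thus far above Prosalpha3 in every library, with no overlap of their ranges. By mean CPM per kb, Prosalpha3T was at rank 26 of 13871 genes.

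Counted genes within 40000 bp of Prosalpha3T were of both high and low level. Ktch, 4550 bp away, had 290 ± 59.3 CPM per kb (rank 30), CG15553 had 245 ± 42.6 (rank 36), stops had 190 ± 18.4 (rank 50), Mayo had 176 ± 31.7 (rank 57) and CG11317 had 71.8 ± 16.8 (rank 185). CG15554, which lies between Prosalpha3T and Ktch, had 42, 9 and 1 counts, Gycbeta100B had 323, 100 and 69, and Sox100B had 44, 18 and 2. All of these neighbours, of high and of low level, were lowest per kb in replicate 3, as was Prosalpha3T. The share of all genes lowest in replicate 3 was not computed. These neighbours were looked at after the level of Prosalpha3T was seen, and their part in it was not tested.

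Testis and male germ line markers were near the floor of detection apart from bol. Of 23 such markers, 10 were at 0 in every library, among them bam, aly and the protamine genes ProtA and ProtB. Markers other than bol, which had 809, 637 and 870 counts, summed to 13, 16 and 23 counts over 22 genes, 0 of them with 10 counts in every library. With bol, the 23 markers summed to 822, 653 and 893 counts, and Prosalpha3T had 1094 to 1255, but the spans are unlike. Per kb, bol, with a span of 36777 bp, had 5.11 ± 0.74 CPM. Prosalpha3T, with a span of 889 bp, had 316 ± 26.0. A testis source of the Prosalpha3T counts was not tested.

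Rpn13R (FBgn0029745) was the other paralog with a clear level. It spans 1088 bp on the X chromosome, from 5131898 to 5132985, within rg, a gene of 169106 bp. It had 94, 101 and 104 counts, against 54, 44 and 75 for Rpn13. Per kb this is 22.4 ± 2.72, against 7.43 ± 1.03 for Rpn13 (SD, n = 3 each), and the ratio was 2.98 (exact interval 2.11 to 4.24), 3.92 (2.73 to 5.73) and 2.37 (1.74 to 3.23) in replicates 1, 2 and 3. The ranges of both genes did not overlap, and Rpn13R was above every constitutive gene per kb in each library. The host gene rg had 386, 377 and 351 counts, or 0.543 ± 0.11 CPM per kb over its whole span. CG15465, of the same span, was at 0. How reads in the shared stretch were assigned is not given in the sources used here, so the counts of Rpn13R are uncertain. Per kb, the ratio of Prosalpha3T to Rpn13R was 14.2, 13.4 and 14.8 in the 3 libraries.

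Other genes of the ubiquitin-proteasome pathway were counted as a list of 55 genes, of which 48 had at least 10 counts in every library, against 41.6% of all genes. Listed genes that act on the particle itself had means of 1.49 to 4.60 CPM per kb. Pomp, the chaperone of core assembly, had 17, 25 and 24 counts, or 3.72 ± 0.76 CPM per kb, and PI31, a core regulator that also links proteasomes to axonal motors in flies, had 4.60 ± 0.08. The activator REG had 1.96 ± 0.52, the proteasome-bound deubiquitinase Usp14 had 3.32 ± 0.54, and Uch-L5, another such deubiquitinase, had 1.49 ± 0.66. REG and Uch-L5 had means below that of every constitutive subunit but Prosalpha1. Sem1, the smallest lid subunit, had 5, 12 and 4 counts.

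Genes that act before degradation spanned a wider range. Rad23 and Ubqn, shuttle factors that bring ubiquitinated proteins to the proteasome, had 30.8 ± 1.58 and 13.7 ± 0.56 CPM per kb. Uba1, the ubiquitin-activating enzyme, had 19.4 ± 1.59 and the polyubiquitin gene Ubi-p63E had 28.3 ± 6.14, with 336, 394 and 680 counts. Rad23, Uba1 and Ubi-p63E had means well above the highest constitutive subunit mean of 12.5, and that of Ubqn was close to it. TER94, the segregase that extracts ubiquitinated proteins, had 7.76 ± 0.55 and the other polyubiquitin gene, Ubi-p5E, had 5.43 ± 1.07, both lower. Of the scaffolds of cullin ubiquitin ligases, Cul1 had 32.9 ± 2.45, Cul2 had 40.6 ± 4.48, Cul3 had 21.2 ± 1.09 and Cul4 had 8.29 ± 0.77. Transcription of proteasome genes is known to depend on cnc, the fly Nrf factor, which had 521, 617 and 737 counts but, over a span of 41132 bp, 3.68 ± 0.27 CPM per kb. Its partner maf-S had 11, 6 and 19 counts.

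Constitutive proteasome genes were set beside those of other large complexes. Their median of 3.59 CPM per kb (quartiles 2.70 and 5.99, n = 32) stands beside 11.9 (6.71 and 16.6, n = 92) for cytosolic ribosomal protein genes. The median spans were similar, at 1390 bp for the proteasome and 1315 bp for the ribosomal genes. The 21 vacuolar ATPase genes, taken as symbols of Vha followed by a digit and including tissue-specific copies, had a median of 0.166. The count minimum was passed by 78.1% of the constitutive proteasome genes and 42.9% of these. Past it the order was the other way, with a median of 3.75 for 25 proteasome genes, against 26.6 for 9 vacuolar ATPase genes. The minimum keeps the better counted genes, so this order depends on it. These are descriptions of 1 set of libraries, and no test of the differences was made.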

How the data were processed

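Nuclear RNA-seq libraries were made from photoreceptor nuclei purified by NIE. The authors deposited whole-number read counts per gene, without normalization, for 3 shSet2 libraries. The labels list Trimmomatic, Bowtie2, STAR, SAMtools, deepTools and DESeq2 and the builds dm6 and BDGP6. The counting tool and strandedness are not given in the sources used here. The table's 1 blank row held no values and was left out, and 0 columns belonged to other samples. ATAC-seq and shControl libraries were not analysed here.

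Of 13947 identifiers, 13884 matched a symbol and 13871 a gene span in RefSeq's Release 6 plus ISO1 MT table. CPM used totals scaled by TMM factors (1.009, 0.996 and 0.995) from edgeR 4.0.16 in R 4.3.3, and sums used Python 3.11.15, pandas 2.3.3, numpy 2.4.6 and scipy 1.17.1. Coding lengths had been planned, and gene spans were used in their place because no coding lengths were in the tables used. Spans include introns, so levels of genes with long introns are understated if exons alone were counted. Intervals are exact, at 95%, and cover counting error. No sequences were used. The edgeR common dispersion, with an intercept alone, gave a biological coefficient of variation of 0.132. Scaling and intervals were tested on drawn counts with known answers.

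Every proteasome gene found by the rule was to be named, with full values for the highest and lowest of each part and for genes with a paralog, and counts for every paralog. T1 and T2 symbols were placed with the paralogs. Members, lists and markers were chosen with earlier results of these data known. Alternatives were DESeq2 1.42.0 size factors, unscaled totals, other count minimums, a pseudocount of 0.1, no length scaling and each library left out. The libraries are numbered 1 to 3 in the labels, and nothing states that they came from separate flies, so their spread may be technical.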

Additional observations from a re-analysis of the deposited data

How the results depend on the processing

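No paired analysis was possible because counts of 1 group alone, the 3 shSet2 libraries, were used. The CPM of each of the 48 proteasome genes moved by less than 1 SD, or stayed at 0, in 96 comparisons with another scaling and in 144 with a library left out, although leaving out 1 of 3 values cannot move a mean by 1 SD. Without length scaling, median CPM were 3.36 for the beta ring, 5.93 for the base ATPases, 18.2 for the base non-ATPases and 7.62 for the lid, which is a change of unit. With overlapping genes left out (added once the data had been seen, as were the settings without Prosalpha3T and the dispersion with a library left out), the median per kb was 4.38 for the beta ring and 3.19 for the lid. Without Prosalpha3T the summed CPM of the paralogs was 26.3, against 307. With a minimum of 20 counts, 16 of 48 proteasome genes passed, against 27. The median SD of log2(CPM + 1) of the constitutive genes, 0.19, was 0.17 to 0.21 with a library left out, 0.22 with a pseudocount of 0.1 and 0.24 with no count minimum. The biological coefficient of variation, 0.132, was 0.198 by DESeq2 and 0.109 to 0.161 with a library left out, the highest without replicate 2. Scaling by coding length was not run. Depth limits most constitutive genes, at fewer than 100 counts in a library.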
